A study of Homo sapiens with 83 samples.

Results

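The insulin-like growth factor (IGF) axis was followed here as 10 genes chosen by name: the ligand IGF2, the receptors IGF1R, IGF2R and INSR, the receptor substrates IRS1 and IRS2, and the binding proteins IGFBP2, IGFBP3, IGFBP5 and IGFBP6. All 10 were found, out of 60237 gene entries. They were measured by RNA-seq of polyadenylated RNA in 83 libraries from SHEP and SKNAS, 2 human neuroblastoma cell lines grown in culture. Both lines carried N-MYC-ER, a fusion protein that is made all the time and becomes active with 4-hydroxytamoxifen (4OHT). MYC-ON stands for cells with 4OHT, and MYC-OFF for cells with ethanol, the vehicle. The MYC effect below is the difference between these conditions. No library had 4OHT without N-MYC-ER, so an effect of 4OHT itself cannot be told apart from that of the fusion. Cells of all 4 groups also received dexamethasone, a glucocorticoid used to set their clocks to a common phase, so no group shows the genes without a glucocorticoid. RNA was then taken every 4 h from circadian time (CT) 24 to CT76. SHEP gave 28 MYC-OFF and 28 MYC-ON libraries, 14 CTs in each of 2 series. SKNAS gave 14 MYC-OFF and 13 MYC-ON libraries from 1 series, which in MYC-ON ended at CT72. Within a series the time points belong to a single experiment, and p-values thus measure the spread between time points more than between experiments.

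IGF2 is a secreted growth factor that binds the receptor tyrosine kinase IGF1R and, in some splice forms, the insulin receptor INSR. Both kinases hand the signal to the docking proteins IRS1 and IRS2, from which the PI3K, AKT and mTOR pathway is switched on. IGF2R has no kinase: it takes IGF2 from the cell surface to the lysosome and also sorts lysosomal enzymes. The binding proteins hold IGFs outside the cell and can block or prolong their action, and IGFBP6 prefers IGF2 over IGF1. IGF2 is a well-known autocrine growth factor in neuroblastoma and other embryonal tumours.

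Levels are given in TPM, the abundance of a transcript in a library after division by its length, so that genes can be compared with each other. Log2 changes were computed after adding 1 to each TPM, so changes of genes at low TPM come out too small. A gene was tested where its mean reached 1 TPM over the libraries of the comparison, and was called where the adjusted p (Benjamini-Hochberg) did not exceed 0.05 and the absolute log2 change reached 0.15. Trends over time were called on the adjusted p alone. MYCN was at 406 to 688 TPM in SHEP MYC-OFF and at 255 to 515 TPM in SHEP MYC-ON, and at 29.1 to 987 TPM and 13.1 to 1046 TPM in SKNAS. Transcripts of the gene and of the fusion cannot be told apart here, and the level cannot show whether the fusion was active. Of adrenergic neuroblast genes, the SHEP libraries had PHOX2A, DBH, TH and CHGA under 0.1 TPM on average in both conditions and ISL1 under 1 TPM, while HAND2 averaged 15.7 TPM in MYC-OFF and 26.6 in MYC-ON and GATA3 17.1 and 18.7 TPM. They expressed 7 or 8 of 8 mesenchymal neuroblastoma genes at 1 TPM or more. SKNAS expressed 5 adrenergic genes in MYC-OFF, 4 in MYC-ON and 7 of 8 mesenchymal genes in both. The Schwann cell markers S100B and SOX10 were under 0.1 TPM in all 4 groups. The summed level of 4 fibroblast genes was 1973 to 3480 TPM in SHEP MYC-OFF and 332 to 1283 TPM in SHEP MYC-ON, and in SKNAS 861 to 1693 TPM and 379 to 1155 TPM. Of these 4 genes, 2 averaged 1 TPM or more in each SHEP group and 3 in each SKNAS group. COL1A2 was under 0.1 TPM on average in SHEP MYC-ON and in both SKNAS groups, and DCN in SHEP MYC-ON. The part of these genes in the results was not tested.

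SKNAS libraries stood apart from each other. The median over tested genes of log2(TPM + 1) was at least 3.8 in every SHEP library, in 10 of 14 SKNAS MYC-OFF libraries and in 3 of 13 SKNAS MYC-ON libraries, and it went down to 2.97 and 2.76 in those 2 groups. Results in SKNAS are therefore given for most genes also with the library median as a covariate, and for some as values of the libraries at 3.8 or more. Where neither is given, the SKNAS value stands without such a check.

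Promoter sequence is shown for the 4 genes that were lower in SHEP MYC-ON, because N-MYC binds E-boxes, with CACGTG as the preferred form. RefSeq promoters (GRCh38.p14, 250 bases before to 50 after the start of the gene) were matched for 9 of the 10 genes, all but IGF2. The 250 bases before the start are printed 5′ to 3′ on the strand of the gene. Capitals mark CACGTG and the variant CACGCG, read on both strands. IGF2R is on chr6:159968832-159969081 (+), IRS1 on chr2:226799821-226800070 (-), IGF1R on chr15:98648289-98648538 (+) and IGFBP6 on chr12:53097417-53097666 (+).
IGF2R: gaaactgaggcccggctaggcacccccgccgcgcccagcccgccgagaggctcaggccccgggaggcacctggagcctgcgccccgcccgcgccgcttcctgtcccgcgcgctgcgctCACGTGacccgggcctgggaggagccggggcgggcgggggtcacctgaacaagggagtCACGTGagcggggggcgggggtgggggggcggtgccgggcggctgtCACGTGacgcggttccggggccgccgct
IRS1: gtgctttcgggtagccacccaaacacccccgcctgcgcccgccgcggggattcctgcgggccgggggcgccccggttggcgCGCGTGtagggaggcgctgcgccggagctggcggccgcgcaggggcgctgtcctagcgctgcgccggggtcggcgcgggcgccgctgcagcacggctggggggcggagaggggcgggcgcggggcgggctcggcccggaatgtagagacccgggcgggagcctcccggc
IGF1R: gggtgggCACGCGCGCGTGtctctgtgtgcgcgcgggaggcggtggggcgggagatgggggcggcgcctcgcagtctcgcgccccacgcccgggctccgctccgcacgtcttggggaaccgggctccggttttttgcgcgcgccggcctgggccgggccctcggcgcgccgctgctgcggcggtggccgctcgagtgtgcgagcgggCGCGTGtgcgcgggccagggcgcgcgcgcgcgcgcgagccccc
IGFBP6: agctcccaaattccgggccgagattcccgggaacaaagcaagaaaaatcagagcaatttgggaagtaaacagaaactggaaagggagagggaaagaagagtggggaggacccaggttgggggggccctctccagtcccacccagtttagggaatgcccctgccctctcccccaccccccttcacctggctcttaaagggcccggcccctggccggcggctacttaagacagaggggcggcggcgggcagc
CACGTG stood 3 times in the IGF2R promoter, starting 132, 74 and 28 bases before the gene's start. It stood once in IRS1, 36 bases into the transcript and so outside the printed stretch. INSR, IRS2, IGF1R, IGFBP2 (3 entries), IGFBP3, IGFBP5 and IGFBP6 held none. Of all 35116 promoters of this length 7.26% held CACGTG at least once, and 33 of them (0.094%) at least 3 times. The cut of 3 equals the count in IGF2R, so that share describes this promoter and is not a test. The variant stood 3 times in IGF1R and once in IRS1, and in 11.4% of all promoters. A match is a description of the letters and not a binding site.

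The makeup of the axis differed between the lines. In SHEP MYC-OFF the order of the mean levels was IGFBP6 at 346 TPM, IGF2R at 105, IGF1R at 33.8, IRS2 at 6.31, IRS1 at 4.77 and INSR at 3.65, with the other 4 genes under 1 TPM. The ranges of the first 3 did not overlap, and those of IRS2, IRS1 and INSR did. In SKNAS MYC-OFF, IGFBP2 stood first at 905 TPM, followed by IGFBP6 at 72.1, IGF2 at 70.5, IGF2R at 21.3, IGF1R at 17.0 and IGFBP3 at 9.12. There the neighbours IGFBP6 and IGF2, and IGF2R and IGF1R, lay within each other's spread. IGFBP5 was the lowest of the 10 in SKNAS, at 0.171 TPM in MYC-OFF and 0.0340 TPM in MYC-ON. Among all entries IGFBP2 ranked 163rd in SKNAS MYC-OFF and 17682nd in SHEP MYC-OFF.

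**Figure D1:**
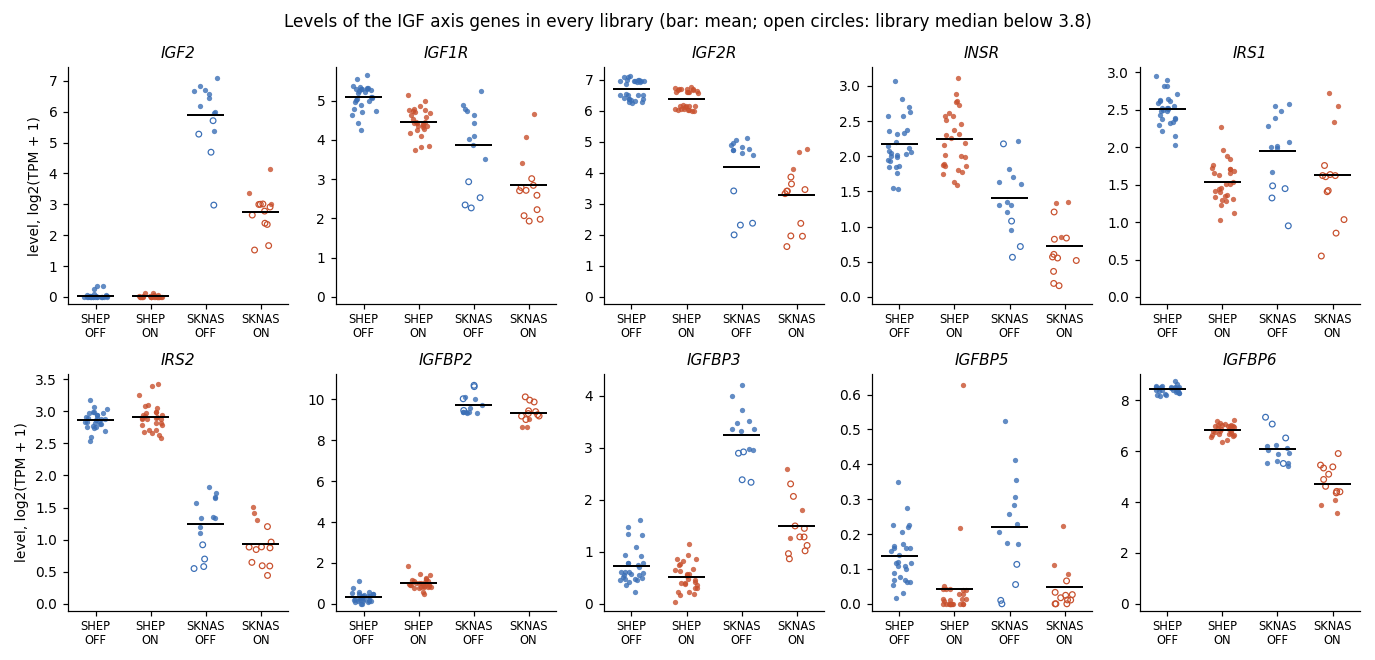
Each point is 1 library of the 4 groups on the x axis (28, 28, 14 and 13 libraries), the y axis is the level as log2(TPM + 1) on its own scale for each gene, bars are group means and open circles are libraries with a median below 3.8. IGF2 and IGFBP2 are near 0 to 2 in SHEP and high in SKNAS, IGFBP6 is lower in MYC-ON in both lines, and the open circles of IGF1R and IGF2R lie at the bottom of the SKNAS groups.

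IGF2, the ligand, was all but missing from SHEP and present in SKNAS. In SHEP MYC-OFF it was listed at 0 in 16 of 28 libraries and reached at most 0.280 TPM, and in SHEP MYC-ON at 0 in 20 of 28 with a highest value of 0.0902 TPM. In SKNAS MYC-OFF its lowest, median and highest values were 6.85, 66.4 and 134 TPM. In SKNAS MYC-ON they were 1.86, 6.52 and 16.7 TPM, so that the ranges overlapped through 1 MYC-OFF library, CT56. The level was lower in MYC-ON at 13 of 13 shared CTs, with a log2 change of -3.04 ± 0.27 (SE; adjusted p 3.93e-07, limma). The ratio of the group means was 10.9. Including the library median gave -2.55 (adjusted p 2.89e-07, limma). In libraries with a median of 3.8 or more the values were 40.5 to 134 TPM in 10 MYC-OFF libraries and 7.06 to 16.7 TPM in 3 MYC-ON libraries, which did not overlap. Fewer cells with IGF2 and less IGF2 RNA per cell cannot be told apart in bulk RNA, here or in any result below.

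Transcripts around IGF2, which lies on chromosome 11 at 2129112 to 2158391 on the minus strand (GRCh38), were scarce. INS-IGF2, a readthrough gene that shares exons with IGF2, was listed at 0 in all 83 libraries. IGF2-AS, the antisense gene, was listed at 0 in all SHEP libraries and averaged 0.375 ± 0.239 TPM in 14 SKNAS MYC-OFF libraries and 0.0536 ± 0.0515 in 13 MYC-ON ones (SD). H19, the neighbouring imprinted noncoding RNA, averaged 1.26 ± 0.853 TPM (SD, n = 14) in SKNAS MYC-OFF. It was at 0.160 ± 0.131 TPM (SD, n = 13) in MYC-ON of that line, and at less than 0.2 TPM in both SHEP groups. H19 and IGF2-AS fell under the mean of 1 TPM and were not tested. The labels do not give the strand of the libraries, so reads of IGF2 and its antisense gene may not be separable.

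Of the 6 genes tested in SHEP, 4 were lower in MYC-ON, none was higher, and INSR and IRS2 were not called. Over all 14362 genes tested in SHEP, 38.9% were called lower, 33.0% higher and 71.8% either way, so a call in itself was common. The median change of the 6 genes was -0.47, against -0.04 over all genes tested. In SKNAS 7 of 9 tested genes were called lower and none higher, against 34.4% lower, 13.7% higher and 48.1% either way of 13886 genes. The median change was -0.85 for the 9 genes and -0.29 for all. In SKNAS, INSR and IRS2 averaged under 1 TPM in MYC-ON and passed the filter through their MYC-OFF level, so these counts describe the genes that passed and not all 10. With the library median as a covariate, 26.1% of genes in SKNAS were lower and 28.3% higher, 54.3% in all, and 4 of the 9 genes were called: IGF2, IGFBP2, IGFBP3 and IGFBP6. After median-of-ratios rescaling of the libraries 23.9% were lower and 27.6% higher, 51.5% in all, and 6 of the 9 genes were called, all but IRS1, IRS2 and IGFBP2.

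**Figure D2:**
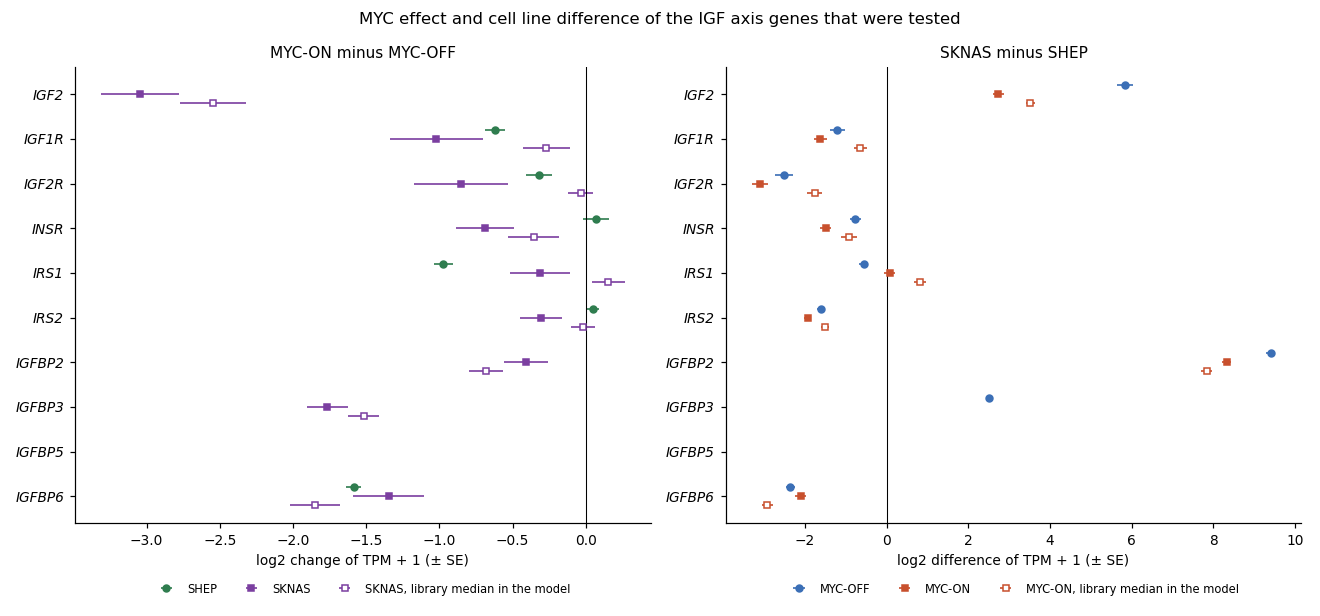
The left panel gives the log2 change from MYC-OFF to MYC-ON and the right panel the log2 difference SKNAS minus SHEP, both of TPM + 1 with SE bars, for the genes tested, and open markers are fits of SKNAS (left) and of MYC-ON (right) with the library median in the model. IGFBP6 lies between -1.35 and -1.85 on the left, while IGF2R in SKNAS moves from -0.85 to -0.03 once the library median is in the model.

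Among the receptors, IGF1R, the kinase through which IGFs signal, was lower in SHEP MYC-ON. Its lowest, median and highest values were 18.0, 34.3 and 49.6 TPM in MYC-OFF and 12.4, 20.8 and 34.3 TPM in MYC-ON. The ranges overlapped, but MYC-ON was lower at the same CT of the same series in 28 of 28 pairs. The log2 change was -0.62 ± 0.07 (SE; adjusted p 1.28e-11, limma), and -0.62 with adjusted p 0.0103 (limma) when each series was averaged to 1 value. Including the library median made it -0.40 (adjusted p 4.52e-07, limma). In SKNAS, IGF1R had 3.82, 15.8 and 37.2 TPM in MYC-OFF and 2.82, 5.57 and 24.2 TPM in MYC-ON, overlapping for most of their range. The log2 change there was -1.02 ± 0.32 (SE; adjusted p 0.0156, limma), which became -0.27 (adjusted p 0.169, limma) with the library median in the model. Among the libraries at 3.8 or more, the 3 MYC-ON values of 9.56, 16.0 and 24.2 TPM lay inside the MYC-OFF range but for the lowest, which was just below its 10.5 TPM.

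IGF2R, the scavenger of IGF2, separated the SHEP series more than the conditions. In MYC-OFF, series 1 had 75.99 to 93.2 TPM and series 2 had 116 to 139 TPM. MYC-ON ran from 62.2 to 71.9 TPM in series 1 and from 95.0 to 108 TPM in series 2, so within each series the conditions did not overlap, while series 2 MYC-ON lay above series 1 MYC-OFF. MYC-ON was lower in 28 of 28 pairs of the same series and CT. The log2 change was -0.32 ± 0.09 (SE; adjusted p 0.00153, limma). It kept its size but not its call when each series was 1 value (-0.32, adjusted p 0.341, limma), and it was -0.11 (adjusted p 0.338, limma) with the library median in the model. In SKNAS its values were 3.004, 25.7 and 34.2 TPM in MYC-OFF and 2.08, 9.65 and 26.3 TPM in MYC-ON, with a log2 change of -0.85 ± 0.32 (SE; adjusted p 0.0397, limma) that was -0.03 (adjusted p 0.755, limma) with the library median in the model.

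INSR, the insulin receptor, had 1.90, 3.19 and 7.40 TPM (lowest, median and highest) in SHEP MYC-OFF and 2.02, 3.67 and 7.67 TPM in SHEP MYC-ON. These ranges were nearly the same, and MYC-ON was higher in 16 of 28 pairs. The change was 0.07 on the log2 scale, with a 95% interval from -0.11 to 0.25 (adjusted p 0.466, limma). In SKNAS it had 0.478, 1.52 and 3.67 TPM in MYC-OFF and 0.117, 0.521 and 1.55 TPM in MYC-ON, lower in 11 of 13 pairs. That change was -0.69 ± 0.20 (SE; adjusted p 0.0105, limma), and -0.36 (adjusted p 0.10, limma) with the library median in the model. Within single libraries IGF1R stood above INSR by a median of 9.79-fold in SHEP MYC-OFF and 6.02-fold in SHEP MYC-ON, and by 10.4-fold and 11.5-fold in SKNAS.

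**Figure D3:**
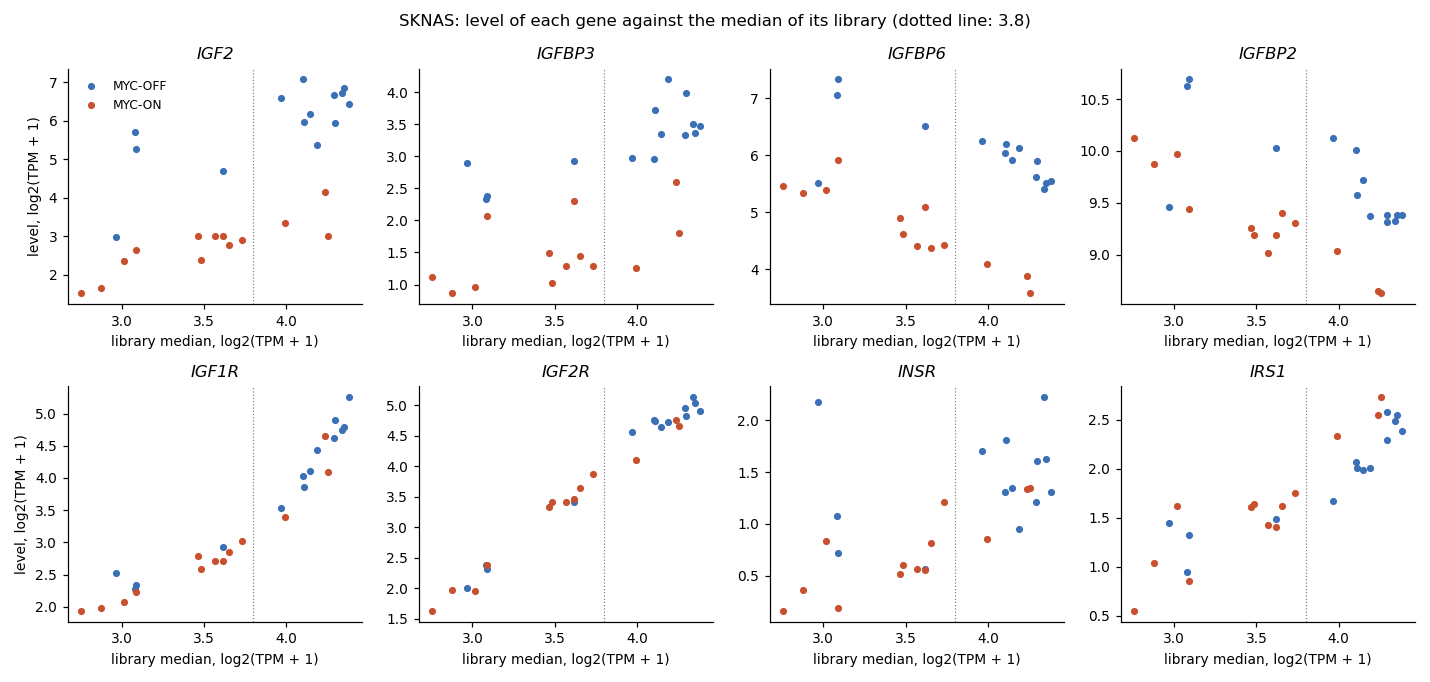
Each point is 1 SKNAS library, with the median of log2(TPM + 1) over tested genes on the x axis and the level of the named gene as log2(TPM + 1) on the y axis, coloured by condition, and the dotted line marks 3.8. IGF2, IGFBP3 and IGFBP6 are lower in MYC-ON at like medians, whereas the MYC-OFF and MYC-ON points of IGF1R and IGF2R lie along 1 band from about 2 to 5.

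The substrates behaved unlike each other in SHEP. IRS1 had 3.10, 4.71 and 6.71 TPM in MYC-OFF and 1.05, 1.85 and 3.82 TPM in MYC-ON, with overlap only at the ends of the ranges, and was lower in 28 of 28 pairs. Its log2 change was -0.97 ± 0.07 (SE; adjusted p 1.29e-17, limma). IRS2 had 4.82, 6.33 and 8.06 TPM in MYC-OFF and 5.00, 6.42 and 9.75 TPM in MYC-ON, higher in 16 of 28 pairs. The IRS2 change was 0.05 with a 95% interval from -0.04 to 0.14 (adjusted p 0.321, limma). Within a library, the ratio of IRS2 to IRS1 was 0.958 to 2.23 in SHEP MYC-OFF and 2.07 to 6.32 in SHEP MYC-ON, with medians of 1.31 and 3.56. The ranges of this ratio overlapped only at their ends. In SKNAS IRS1 was the higher of the pair in MYC-OFF, with IRS2 to IRS1 ratios of 0.330 to 0.649, and the median ratio was 0.473 in MYC-OFF and 0.445 in MYC-ON. IRS1 in SKNAS had 0.932, 3.02 and 4.96 TPM in MYC-OFF and 0.461, 2.08 and 5.64 TPM in MYC-ON. Its change was -0.31 ± 0.21 (SE; adjusted p 0.222, limma), and 0.15 (adjusted p 0.265, limma) with the library median in the model. In libraries at 3.8 or more IRS1 had 2.18 to 4.96 TPM in 10 MYC-OFF libraries and 4.06 to 5.64 TPM in 3 MYC-ON libraries. IRS2 in SKNAS, at 0.464 to 2.52 TPM in MYC-OFF and 0.359 to 1.86 TPM in MYC-ON, gave -0.31 ± 0.14 (SE; adjusted p 0.0857, limma).

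IGFBP6, the binding protein that prefers IGF2, was the most abundant of the 10 in SHEP and was called lower with 4OHT in each line. In SHEP it had 284, 347 and 433 TPM in MYC-OFF and 81.9, 117 and 148 TPM in MYC-ON, with a wide gap between the groups. The log2 change was -1.58 ± 0.05 (SE; adjusted p 8.02e-30, limma), and each SHEP series alone gave -1.48 and -1.69. The SKNAS values were 41.6, 62.2 and 161 TPM in MYC-OFF and 10.9, 23.6 and 59.1 TPM in MYC-ON. These ranges overlapped, although MYC-ON was lower at 13 of 13 shared CTs, and in libraries at 3.8 or more they were 41.6 to 75.4 TPM and 10.9 to 16.1 TPM. The SKNAS change was -1.35 ± 0.24 (SE; adjusted p 3.36e-04, limma), or -1.85 (adjusted p 3.85e-07, limma) with the library median in the model.

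IGFBP3, another secreted carrier of IGFs, was low in SHEP, with 0.169 to 2.05 TPM in MYC-OFF and 0.0278 to 1.21 TPM in MYC-ON, and was not tested there. In SKNAS it had 4.05, 9.14 and 17.4 TPM in MYC-OFF and 0.821, 1.44 and 5.06 TPM in MYC-ON. The groups overlapped narrowly, and MYC-ON was lower in 13 of 13 pairs, with a log2 change of -1.76 ± 0.14 (SE; adjusted p 1.42e-07, limma). Including the library median it was -1.52 (adjusted p 2.27e-08, limma).

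IGFBP2, a carrier made by many embryonal tumours, had changes of opposite sign in the lines. SKNAS had 636, 732 and 1654 TPM in MYC-OFF and 395, 611 and 1117 TPM in MYC-ON, with broad overlap, and MYC-ON was lower in 11 of 13 pairs. The change was -0.41 ± 0.15 (SE; adjusted p 0.0365, limma). It was -0.68 (adjusted p 1.46e-04, limma) with the library median in the model but -0.03 (adjusted p 0.921, limma) after median-of-ratios rescaling, and in libraries at 3.8 or more the values were 636 to 1118 TPM against 395 to 522 TPM. In SHEP the level was at most 1.20 TPM in MYC-OFF and 0.374 to 2.57 TPM in MYC-ON, higher in MYC-ON in 26 of 28 pairs. This low level kept it out of the test, and without the filter the change was 0.66 (adjusted p 9.61e-11, limma).

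IGFBP5, whose gene lies 7669 bp from that of IGFBP2 on chromosome 2, was hardly detected. It was at most 0.544 TPM in any library and was not tested. In SHEP it was above 0 in 28 of 28 MYC-OFF libraries, at 0.0107 to 0.275 TPM, and listed at 0 in 13 of 28 MYC-ON libraries. In SKNAS it was 0 to 0.437 TPM in MYC-OFF and 0 to 0.168 TPM in MYC-ON.

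The MYC effect was compared between the lines with an interaction over all 83 libraries. It was called for 6 of 9 tested genes, 5 with a lower and 1 with a higher effect in SKNAS, against 51.5% of 14870 genes, 38.1% lower and 13.4% higher. After rescaling the shares were 50.1%, 24.6% and 25.6%, and with the library median in the model 47.0%, 21.7% and 25.4%. IGF2 (-3.01), IGFBP3 (-1.56), IGFBP2 (-1.07), INSR (-0.76) and IRS2 (-0.36) had lower log2 effects in SKNAS, and IRS1 a higher one (0.66 ± 0.16, SE; adjusted p 5.93e-04, limma). IGF2, IGFBP2 and IGFBP3 averaged 1.04 TPM or less in both SHEP conditions and passed the filter here through SKNAS. Fitted with no filter, their SHEP log2 effects were -0.03 for IGF2, 0.66 for IGFBP2 and -0.21 for IGFBP3, values that the added 1 TPM makes small at such levels, so the count of 6 is a description of the genes that passed. Including the library median, the IRS1 difference was 1.07 (adjusted p 7.54e-11, limma) and the IRS2 one -0.11 (adjusted p 0.283, limma). When each series was 1 value, neither was called (IRS1 0.65, adjusted p 0.0540, and IRS2 -0.36, adjusted p 0.135, limma). IGFBP6 did not pass, with a difference of 0.24 and a 95% interval from -0.10 to 0.57 (adjusted p 0.229, limma). Neither did IGF1R (-0.40, from -0.84 to 0.04, adjusted p 0.120, limma) nor IGF2R (-0.53, from -1.02 to -0.05, adjusted p 0.0604, limma).

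Between the lines in MYC-OFF, all 9 tested genes differed, 3 higher and 6 lower in SKNAS, against 78.5% of 14926 genes tested (32.1% higher, 46.4% lower). SKNAS was higher in IGF2 (5.84), IGFBP2 (9.41) and IGFBP3 (2.51), which passed the filter only through SKNAS and so had to differ. SKNAS was lower in IGF2R, by a log2 difference of -2.52 ± 0.22 (SE; adjusted p 6.73e-12, limma), in IGFBP6 (-2.36), IRS2 (-1.62), IGF1R (-1.21), INSR (-0.77) and IRS1 (-0.57). In MYC-ON 7 of 8 tested genes differed, 2 higher and 5 lower, against 84.3% of 14620 genes (26.0% higher, 58.3% lower). IGF2R (-3.10), IGFBP6 (-2.10), IRS2 (-1.94), IGF1R (-1.63) and INSR (-1.50) were again lower in SKNAS, with IGF2 (2.73) and IGFBP2 (8.32) higher. IGF2 passed the filter only through SKNAS, and INSR and IRS2 only through SHEP, so these 3 had to differ in the direction they did. IRS1 gave 0.07 with a 95% interval from -0.19 to 0.34 (adjusted p 0.604, limma). In libraries at 3.8 or more the MYC-ON difference of IRS1 was 0.94 (adjusted p 2.8e-06, limma), and that of IGF1R was -0.46 (adjusted p 0.0538, limma). The sizes of the other MYC-ON differences also depended on the SKNAS libraries used. IGF2R averaged 22.3 TPM in the 3 SKNAS MYC-ON libraries at 3.8 or more and 7.55 TPM in the 10 below. IRS2 averaged 1.66 and 0.751 TPM there, INSR 1.29 and 0.531 TPM, and IGFBP6, the other way, 13.6 and 32.8 TPM. SHEP MYC-ON averaged 83.9, 6.61, 3.92 and 115 TPM for these 4 genes. The comparisons by line and by MYC share their libraries, so they are not independent of each other.

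Over circadian time, 3 of 6 tested genes drifted in SHEP MYC-OFF, 2 up and 1 down, where 15.7% of all genes did (5.71% up, 10.0% down). In SHEP MYC-ON 1 drifted up and 2 down, where 57.3% of all genes did (19.9% up, 37.3% down). IRS1 rose by 0.18 per 24 h on the log2 scale in MYC-OFF (adjusted p 0.00463, limma) and fell by 0.32 in MYC-ON (adjusted p 1.73e-06, limma). Its TPM went from 3.10 and 4.74 at CT24 to 5.25 and 6.71 at CT76 in the MYC-OFF series, and from 2.60 and 2.90 to 1.72 and 1.54 in the MYC-ON series. The slopes differed by -0.49 ± 0.06 (SE; adjusted p 8.52e-09, limma), a test added after the slopes were seen, in which 3 of the 6 genes passed, 1 higher and 2 lower, and 43.4% of all genes (16.1% higher, 27.3% lower). IGF1R fell in both conditions, by 0.26 in MYC-OFF (adjusted p 0.00754, limma) and 0.29 in MYC-ON (adjusted p 0.00113, limma). IGFBP6 rose by 0.15 per 24 h in MYC-OFF (adjusted p 6.36e-04, limma). INSR rose by 0.26 in MYC-ON (adjusted p 0.0345, limma), where series 2 carried the slope: without series 1 it was 0.44 and without series 2 it was 0.08. IRS2 was not called in either condition, but in MYC-ON it was called after rescaling (0.16, adjusted p 0.0136, limma) and without series 2 (0.22, adjusted p 0.00745, limma), and not without series 1 (0.01). Its highest values in MYC-ON were the CT76 libraries of both series, at 9.51 and 9.75 TPM. When series 1 was left out, none of the 6 genes was called in MYC-OFF with limma (2 had an unadjusted p under 0.05). Of all 14362 genes, 2051 had such a p there, and 120 were called up and 123 down. IGFBP6 missed the call also without series 2 (adjusted p 0.0526, limma), as did IGF1R in MYC-OFF without CT24 (adjusted p 0.0710, limma) and in MYC-ON without series 1 (adjusted p 0.0553, limma).

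**Figure D4:**
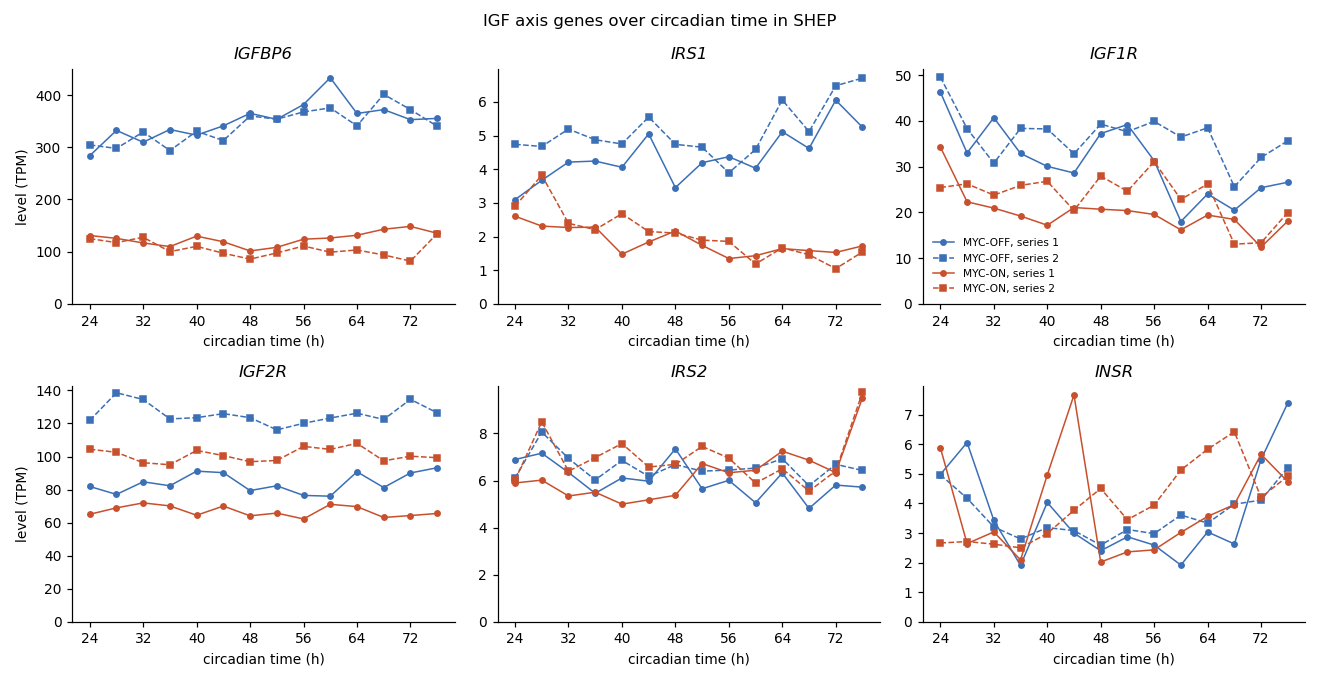
Level in TPM against circadian time in hours in SHEP, with 1 line per series and condition. IGFBP6 is separated by condition at every CT and IRS1 at all but CT28, IRS1 draws apart with time, and IGF2R shows the series 2 lines above those of series 1.

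No 24 h rhythm was called for a tested gene of the axis in any of the 4 groups, by a limma F test of cosine and sine terms at an adjusted p of at most 0.05. At an unadjusted p under 0.05 there were 1 of 6 genes without and 2 of 6 with 4OHT in SHEP, and 0 of 9 in both SKNAS groups. Such a p was found for 1500 and 1542 of all 14362 genes in SHEP. In SKNAS it was found for 60 genes without and 46 with 4OHT, of 13886. By the adjusted p, 0.0905%, 0.0209%, 0.0% and 0.0% of all genes were called in these 4 groups. Each SKNAS group is 1 series of 13 or 14 libraries with unequal medians, so the lack of a call there does not show that rhythms were absent. No linear trend was called in SKNAS either (0 of 9 genes in each group with limma, 6 in MYC-OFF and 3 in MYC-ON at an unadjusted p under 0.05). Of all 13886 genes, 5076 in MYC-OFF and 845 in MYC-ON had an unadjusted p under 0.05. The share of all genes called by the adjusted p was 0.0% without 4OHT and 0.0936% with it (0.0216% up, 0.072% down).

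Other genes of the pathway were counted in 5 lists of 43 genes. In SHEP 30 of them were tested, 7 being higher and 14 lower in MYC-ON, and in SKNAS 28 were tested, 3 being higher and 9 lower. The median change was -0.05 in SHEP, close to the -0.04 of all genes, and -0.56 in SKNAS against -0.29. Counts over the lists were thus not far from the background shares given above, and the named genes follow.

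Among the other ligands, receptors and carriers, 1 of 7 genes was tested in SHEP and 2 in SKNAS, all lower. IGFBP4, a carrier that generally holds IGFs back, went from 25.5 ± 10.9 TPM (SD, n = 28) to 6.91 ± 1.39 (SD, n = 28) in SHEP, a log2 change of -1.63 (adjusted p 2.0e-19, limma). In SKNAS it went from 339 ± 46.8 TPM (SD, n = 14) to 177 ± 36.7 (SD, n = 13), a change of -0.96 (adjusted p 9.23e-07, limma). IGFBP7, a protein related to the binding proteins, went from 70.7 to 33.1 TPM in SKNAS (-1.11, adjusted p 1.31e-05, limma). With the library median in the model, IGFBP4 (-0.99) and IGFBP7 (-0.95) stayed called in SKNAS.

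Of the 4 genes of binding protein proteolysis, PAPPA, the protease that cleaves IGFBP4, was lower in SHEP MYC-ON (4.39 to 1.59 TPM, -1.03, adjusted p 2.37e-24, limma). STC1, which can inhibit PAPPA, was lower there too (12.6 to 3.97 TPM, -1.49, adjusted p 5.91e-18, limma). STC2, also an inhibitor of PAPPA, was not tested in SHEP and was higher in SKNAS MYC-ON (12.3 to 27.0 TPM, 1.23, adjusted p 0.00265, limma). In all, 1 of 3 tested genes was higher and 2 lower in SHEP, and the 1 tested in SKNAS was higher.

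The IGF2BP proteins bind the IGF2 mRNA and other mRNAs. IGF2BP2 (0.25, adjusted p 1.24e-06, limma) and IGF2BP3 (0.23, adjusted p 0.00216, limma) were higher in SHEP MYC-ON. Neither was called when each series was 1 value (adjusted p 0.0547 and 0.161, limma), and IGF2BP3 gave 0.33 without series 1 and 0.14, too small for a call, without series 2. IGF2BP1 was at 28.6 and 27.4 TPM in SHEP MYC-OFF and MYC-ON and at 0.101 and 0.0501 TPM in SKNAS. In SKNAS, IGF2BP2 (-0.42, adjusted p 0.272, limma) and IGF2BP3 (-0.83, adjusted p 0.199, limma) were not called, and their sign turned with the library median in the model (0.37 and 0.48).

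Among 9 adaptors, SH2B2, which binds the insulin receptor, rose in both lines, from 1.85 to 25.2 TPM in SHEP (3.21, adjusted p 8.36e-33, limma) and from 9.89 to 90.0 TPM in SKNAS (3.07, adjusted p 2.26e-10, limma). GRB14, an inhibitor of the insulin receptor kinase, rose from 1.89 to 17.0 TPM in SKNAS (2.59, adjusted p 2.42e-08, limma) and was at 0.437 and 1.43 TPM in SHEP, below the filter. GAB1, a docking protein, was lower in SHEP (-0.38, adjusted p 6.60e-05, limma) and in SKNAS (-1.53, adjusted p 6.70e-04, limma), and with the library median included it was -0.19 (adjusted p 0.0750, limma) and -0.82 (adjusted p 1.55e-04, limma). With each SHEP series as 1 value it was not called (adjusted p 0.0952, limma). Over the list, 1 gene was higher and 4 lower of 6 tested in SHEP, and 2 higher and 2 lower of 7 tested in SKNAS.

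Downstream, the 17 genes of the PI3K, AKT, mTOR and FOXO list held 3 that were higher, 7 lower and 7 not called in SHEP, and none higher, 5 lower and 11 not called of 16 in SKNAS. PIK3R1, the regulatory subunit of PI3K, was lower in both (-0.27, adjusted p 0.00181, and -1.55, adjusted p 0.00183, limma), though not in SHEP with each series as 1 value (adjusted p 0.182, limma). FOXO3, a transcription factor held back by AKT, was lower by -0.53 (adjusted p 1.79e-14, limma) in SHEP and -0.85 (adjusted p 0.00431, limma) in SKNAS. PDPK1, the kinase that activates AKT, was lower in SHEP (-0.49, adjusted p 8.05e-09, limma) and not called in SKNAS (-0.63, adjusted p 0.104, limma). With the library median in the model, PIK3R1 was -0.03 in SHEP (adjusted p 0.744, limma) and -0.71 in SKNAS (adjusted p 5.9e-04, limma), and FOXO3 was -0.38 and -0.35, called in both lines.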

How the data were processed

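Polyadenylated RNA of SHEP and SKNAS N-MYC-ER cells was sequenced with paired ends on an Illumina NovaSeq. Per the labels, the authors quantified reads with Salmon 1.3.0 on GRCh38, and per the study's methods summed transcripts to genes with Tximport. The deposited values are TPM, 1 value per gene and library. TPM are divided by transcript length and scaled to a total of 1000000 in each column. The depth of each library is therefore unknown, no counting error can be given, and values are relative to the other genes. A count model like that of the study does not suit TPM, and limma was used instead.

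The tests used limma 3.58.1 (R 4.3.3) on TPM with a pseudocount of 1 on the log2 scale. Time points served as replicates, following the study, and CT entered as a factor, over genes with a mean of at least 1 TPM in the libraries of the fit. P-values were Benjamini-Hochberg adjusted over all these genes. The interaction was fitted on 83 libraries with line by CT as factors. Trends (per 24 h) and 24 h cosine and sine terms were fitted per group, with a mean for each SHEP series. The test of slopes between conditions was added after the trends were seen. The main fit of each comparison was also run on simulated data, and the alternatives were not. The simulated spread was independent between genes, so shifts shared by a whole library, as in SKNAS, were not covered. The library median was taken over genes with a mean of at least 1 TPM in the line, and as a covariate over the genes tested in that fit. Tables were read with Python 3.11.15 and pandas 2.3.3. Groups came from the sample titles, and no pair of libraries was identical (highest r 0.992). Alternatives were a pseudocount of 0.1, no filter, median-of-ratios rescaling, the library median as covariate, series means as replicates, no CT, each SHEP series left out, SKNAS libraries at 3.8 or more, and a replicate block.

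The 10 genes, the 5 lists and the markers were chosen with earlier results of these data known. Of each list, the 3 genes with the largest mean absolute MYC effect among those called in a line were named, beside the genes of the IGF2 locus. Gene positions and canonical transcript lengths are from Gencode 44 (GRCh38). A second SKNAS series and another cell line of the study were not analysed here, and 1 adrenergic marker is not reported here.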

Additional observations from a re-analysis of the deposited data

Results flagged for a closer look

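The MYC effect differed between the lines, by the interaction test (limma, all 83 libraries), for 6 of 9 tested genes, against 51.5% of all 14870. The log2 effect in SKNAS minus that in SHEP was -3.01 for IGF2, -1.56 for IGFBP3, -1.07 for IGFBP2, -0.76 for INSR, -0.36 for IRS2 and 0.66 for IRS1. IRS1 was lower in SHEP MYC-ON in 28 of 28 pairs and in SKNAS in 9 of 13. IGFBP2 was higher in SHEP MYC-ON in 26 of 28 pairs, at a level of 2.57 TPM or less, and lower in SKNAS in 11 of 13. INSR was lower in SKNAS MYC-ON in 11 of 13 pairs and in SHEP in 12 of 28, and IRS2 in 9 of 13 and 12 of 28. IGF2, IGFBP2 and IGFBP3 averaged 1.04 TPM or less in SHEP and passed the filter through SKNAS. IRS1 and IRS2 were not called when each series was 1 value (adjusted p 0.0540 and 0.135, limma). The values that bear on the SKNAS libraries with low medians stand with the results above.

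The slope over circadian time differed between the conditions in SHEP for 3 of 6 tested genes, against 43.4% of all 14362. The slope per 24 h in MYC-ON minus that in MYC-OFF was -0.49 for IRS1, 0.19 for IRS2 (adjusted p 0.0107, limma) and -0.15 for IGFBP6 (adjusted p 0.0397, limma). IGFBP6 gave -0.04 without series 2 and -0.25 without series 1, and IRS2 gave 0.34 and 0.05, so both rest on 1 series. IGFBP6 also missed the call without CT24 (-0.09) and after rescaling (-0.11).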

How the results depend on the processing

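Of 470 values of the 10 genes recomputed under an alternative, 404 kept their direction and their side of the threshold, 43 kept the direction and lost the call, 8 gained a call and 15 turned sign. The line difference in MYC-OFF kept all 9 calls under every alternative run.

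In SKNAS 7 genes were called lower in MYC-ON. With the library median as covariate 4 were called. With the 13 libraries at 3.8 or more 0 were called (limma, 3 at an unadjusted p under 0.05, as were 2939 of all 13886 genes). In that fit only 42 of all genes were called higher and 27 lower. Its CT terms left few libraries over to measure the spread, so the 0 does not show that changes were absent. With the same libraries and no CT in the model, a choice made after seeing the data, 4 were called. There 2923 of 13886 genes were called higher and 3532 lower. The signs that turned under these 3 alternatives were, in this order, IRS1 (0.15, 0.15 and 0.34), IGF2BP3 (0.48, 0.55 and 0.85) and IGF2BP2 (0.37, 0.41 and 0.45), and PDPK1 under the first pair (0.15 and 0.065). Between the lines, the MYC effects differed with a turned sign for IGF1R (0.26, 0.40 and 0.24), IGFBP6 (-0.19, -0.34 and -0.42) and, under the covariate, IGF2R (0.19). The cause was not tested.

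Of the 3 trends called in SHEP MYC-OFF, 0 to 2 were called without a series. The MYC-ON trend of IGFBP6, at about 0, was 0.053 after rescaling, -0.10 and 0.10 without series 1 and series 2, and 0.036 without CT24. The slope difference of IGF1R was 0.0083 after rescaling, and -0.14 and 0.085 without series 1 and series 2.

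SHEP replicate numbers are not said to mark a shared day. The difference between series correlated across genes between the conditions (r 0.489, 14362 genes), a hint from the data. With the replicate block the SHEP count stayed at 4, and the interaction count was 7 in place of 6, IGF2R being added (adjusted p 0.0241, limma).

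Depth per library is unknown, SKNAS has 1 series, and its MYC-ON group has 3 libraries at 3.8 or more, which limits what its low genes can show.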

Other observations

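Within SKNAS, the genes of the axis moved with the library median in an order that broadly followed transcript length. In MYC-OFF, the 4 libraries with a median below 3.8 minus the 10 others gave log2 differences of 0.76 for IGFBP6 (canonical transcript 947 nt) and 0.64 for IGFBP2 (1414 nt). They gave -0.85 for IGFBP3 (2613 nt), -1.91 for IGF1R (12235 nt) and -2.31 for IGF2R (14061 nt). The same sign held in MYC-ON, with 10 low libraries and 3 others, at 1.14 for IGFBP6, 0.71 for IGFBP2, -0.50 for IGFBP3, -1.56 for IGF1R and -1.61 for IGF2R. IRS1 (9771 nt) gave -0.90 and -1.19. INSR (9463 nt, -0.38 and -0.60) and IRS2 (8156 nt, -0.79 and -0.62) moved less than IGF2 (5580 nt, -1.72 and -0.98), so the order was not strict. Over all tested genes the medians in MYC-OFF were -0.14 for 4569 genes under 2000 nt, -0.97 for 6111 genes from there to under 5000 nt and -1.33 for 3177 longer ones. The libraries were split by their median, to which all genes contribute, and the differences are a description with no test.

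In the 56 SHEP libraries, log2 levels were taken as deviations from the mean of their own series and condition. For each tested gene, the gene with the most alike deviations is named. It was TAB3 for IGF1R (r 0.82, rho 0.78), IL27RA for IRS1 (r 0.80, rho 0.75) and ALKBH7 for IGFBP6 (r 0.75, rho 0.76). For IRS2 it was SLC25A29 (r 0.73, rho 0.65), for IGF2R NSD3 (r 0.64, rho 0.63) and for INSR GKAP1 (r 0.56, rho 0.63). Mean differences between series and conditions are thus not part of these values, while shared time points are.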
